A study of Mus musculus with 20 samples.

Results

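The 8 T-box transcription factor genes *Tbx1*, *Tbx2*, *Tbx3*, *Tbx4*, *Tbx5*, *Tbx15*, *Tbx18* and *Tbx20*, which pattern the heart and the limbs, were examined for peaks of 5-formylcytosine (5fC) among 22367 protein-coding genes. They were listed by name, and each was studied over its gene body and 5 kb on either side, a stretch called its window here. The summed windows hold 383433 bp of the NCBIM37 (mm9) assembly. 5fC had been pulled down chemically from DNA of 4 tissues of mouse embryos at E11.5 (hindbrain, heart, liver and carcass), and peaks had been called in each library on its own. The groups are wild-type (WT) and *Tdg* null hindbrain (4 embryos of each genotype, from litters that the labels name A, O, Q and Z) and WT and *Tdg* null heart, liver and carcass (2 embryos of each genotype, from litters that the labels name pair_a and pair_b). *Tdg* null embryos are homozygous in every cell for an allele in which a neomycin cassette replaces the catalytic part of thymine DNA glycosylase (TDG), and WT embryos are their littermates from crosses between heterozygotes. Heart, liver and carcass of one litter came from the same embryos and are not independent of each other. Carcass is the body that remained after dissection, a mixture of many cell types that holds the limbs. Each library is one dissected tissue, so a mark in few cells at a high level and a mark in many cells at a low level cannot be told apart.

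T-box factors share a DNA-binding domain, the T-box, and act as activators or repressors. TBX5 and TBX20 activate genes of the working heart muscle, and TBX5 also starts forelimb outgrowth, while TBX4 acts in the hindlimb. TBX2 and TBX3 repress chamber genes in the slowly conducting parts of the heart tube, TBX1 acts in pharyngeal and outflow tract progenitors, TBX18 in the epicardium and the sinus horns, and TBX15 in the dermis, limbs and axial skeleton. 5fC is made from 5-methylcytosine by TET enzymes through 5-hydroxymethylcytosine, and TDG excises it during active demethylation, so that 5fC is retained where TDG is missing. In mammals these bases occur mainly at CpG dinucleotides.

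The deposited files hold the start and end of each peak only, with no read counts, so the depth of the libraries is unknown. Between 101344 and 254319 peaks were used in each of the 9 *Tdg* null libraries, covering 2.68% to 8.09% of the ungapped genome, against 1563 to 42012 peaks and 0.0349% to 0.939% in the 10 WT libraries. The *Tdg* null liver of pair_b, with 228 peaks, was treated by the study as of poor quality. It was left out of the main values, and it had 0 peaks in the 8 windows. The *Tdg* gene's own window was under peaks in 8 of 9 *Tdg* null and 3 of 10 WT libraries, which does not check the deletion because a peak list shows no missing sequence. Coverage is given as the percent of a window under peaks and as relative coverage, which is that percent divided by the percent of the ungapped genome under peaks in the same library.

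For 4 of the genes, the stretch under peaks in the most of the 19 libraries, WT included, is shown first. Each of these stretches was under peaks in 8 *Tdg* null libraries. All sequences are NCBIM37, plus strand, 5′ to 3′, with each CpG in capitals. The deepest stretch of all 8 windows lay in an intron of *Tbx5*, chr5:120316801-120317100, 32278 bp downstream of the start site at its middle. It was under peaks in 13 of 19 libraries, 8 *Tdg* null and 5 WT. The *Tdg* null library that lacked it was the heart of pair_b. The stretch holds 15 CpGs, or 5 per 100 bases against 0.834 in the ungapped genome. The 100 bp of *Tbx5* under peaks in all 9 *Tdg* null libraries lay elsewhere.

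Tbx5, 13 libraries: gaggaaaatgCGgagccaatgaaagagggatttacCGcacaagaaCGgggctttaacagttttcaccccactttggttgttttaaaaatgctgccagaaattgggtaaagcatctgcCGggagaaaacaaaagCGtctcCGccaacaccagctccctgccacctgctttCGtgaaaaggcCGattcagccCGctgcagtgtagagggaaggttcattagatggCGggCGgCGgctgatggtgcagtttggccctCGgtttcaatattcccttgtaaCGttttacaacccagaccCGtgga

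In *Tbx4*, an intronic stretch of 600 bp at chr11:85723501-85724100 was under peaks in 12 libraries, 8 *Tdg* null and 4 WT, with the liver as the *Tdg* null library that lacked it. Its middle 300 bp, chr11:85723651-85723950, hold 8 CpGs.

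Tbx4, 12 libraries: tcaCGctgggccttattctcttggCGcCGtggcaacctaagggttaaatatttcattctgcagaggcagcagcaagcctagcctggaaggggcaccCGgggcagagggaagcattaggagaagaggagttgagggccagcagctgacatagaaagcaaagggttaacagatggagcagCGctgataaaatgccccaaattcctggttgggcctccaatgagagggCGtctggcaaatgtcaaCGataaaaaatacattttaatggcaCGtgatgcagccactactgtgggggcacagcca

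In *Tbx15*, the deepest stretch was also intronic, chr3:99094201-99094500, and was under peaks in 9 libraries, 8 *Tdg* null (again without liver) and 1 WT carcass. It holds 6 CpGs.

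Tbx15, 9 libraries: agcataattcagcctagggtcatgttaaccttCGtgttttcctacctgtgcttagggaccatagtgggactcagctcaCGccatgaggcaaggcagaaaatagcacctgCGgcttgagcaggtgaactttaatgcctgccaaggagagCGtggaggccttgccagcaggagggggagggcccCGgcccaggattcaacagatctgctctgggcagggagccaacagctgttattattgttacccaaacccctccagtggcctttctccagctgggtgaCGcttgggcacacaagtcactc

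In *Tbx20*, an intronic stretch of 200 bp, chr9:24542701-24542900, was under peaks in 8 *Tdg* null libraries (without the carcass of pair_a) and in 0 WT libraries, and holds 2 CpGs. *Tbx20* is read from the minus strand, so the sequence as printed runs against the gene.

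Tbx20, 8 libraries: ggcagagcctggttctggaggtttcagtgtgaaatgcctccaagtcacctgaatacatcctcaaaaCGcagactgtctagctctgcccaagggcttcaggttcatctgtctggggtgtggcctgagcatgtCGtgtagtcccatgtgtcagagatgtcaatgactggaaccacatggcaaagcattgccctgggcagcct

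Heart stretches are shown for *Tbx5* and *Tbx20* because these genes had the most peaks in heart. An intronic stretch, as long as any, that was under peaks in both *Tdg* null hearts and in 0 *Tdg* null hindbrains spanned 1400 bp in *Tbx5* (chr5:120307401-120308800, 21 CpGs) and 600 bp in *Tbx20* (chr9:24552401-24553000, 5 CpGs). The *Tbx5* stretch was also touched by a peak of the *Tdg* null liver, and the *Tbx20* stretch by no library other than the 2 hearts. The middle 300 bp are chr5:120307951-120308250 and chr9:24552551-24552850, and the former begins with a repeat of the letters GGAA. The *Tbx20* stretch ties at 600 bp with others, one of which lies in an untranslated region, and it was chosen after its values were seen.

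Tbx5, both hearts: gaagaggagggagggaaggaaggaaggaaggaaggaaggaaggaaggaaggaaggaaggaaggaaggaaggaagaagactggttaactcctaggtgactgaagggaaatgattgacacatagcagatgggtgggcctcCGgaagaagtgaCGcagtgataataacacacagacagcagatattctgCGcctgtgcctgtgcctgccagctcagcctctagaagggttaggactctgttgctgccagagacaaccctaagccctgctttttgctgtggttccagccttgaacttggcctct
Tbx20, both hearts: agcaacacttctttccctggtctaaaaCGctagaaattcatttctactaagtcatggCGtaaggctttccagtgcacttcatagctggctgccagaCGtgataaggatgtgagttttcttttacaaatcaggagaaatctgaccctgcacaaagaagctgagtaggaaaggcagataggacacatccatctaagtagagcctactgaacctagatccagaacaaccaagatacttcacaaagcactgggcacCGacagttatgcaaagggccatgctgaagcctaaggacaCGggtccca

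Across the 8 windows, 250 peaks were found in the 9 *Tdg* null libraries and 19 in the 10 WT libraries, with a median length of 600 bp in each genotype. Of the 72 values that pair a gene with a *Tdg* null library, 56 (77.8%) had a peak, against 14 of 80 (17.5%) for WT. Over all protein-coding genes these shares were 67.2% and 15.8%. Within tissue and litter, the *Tdg* null window was covered more than the WT window in 56 of 72 pairs, equally (at 0%) in 16 and less in 0. These 56 pairs are the ones with a *Tdg* null peak. *Tdg* null libraries had more peaks genome-wide, and the share of such pairs over all genes was not computed. The plot of coverage by tissue and genotype shows these values for each gene.

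**Figure D1:**
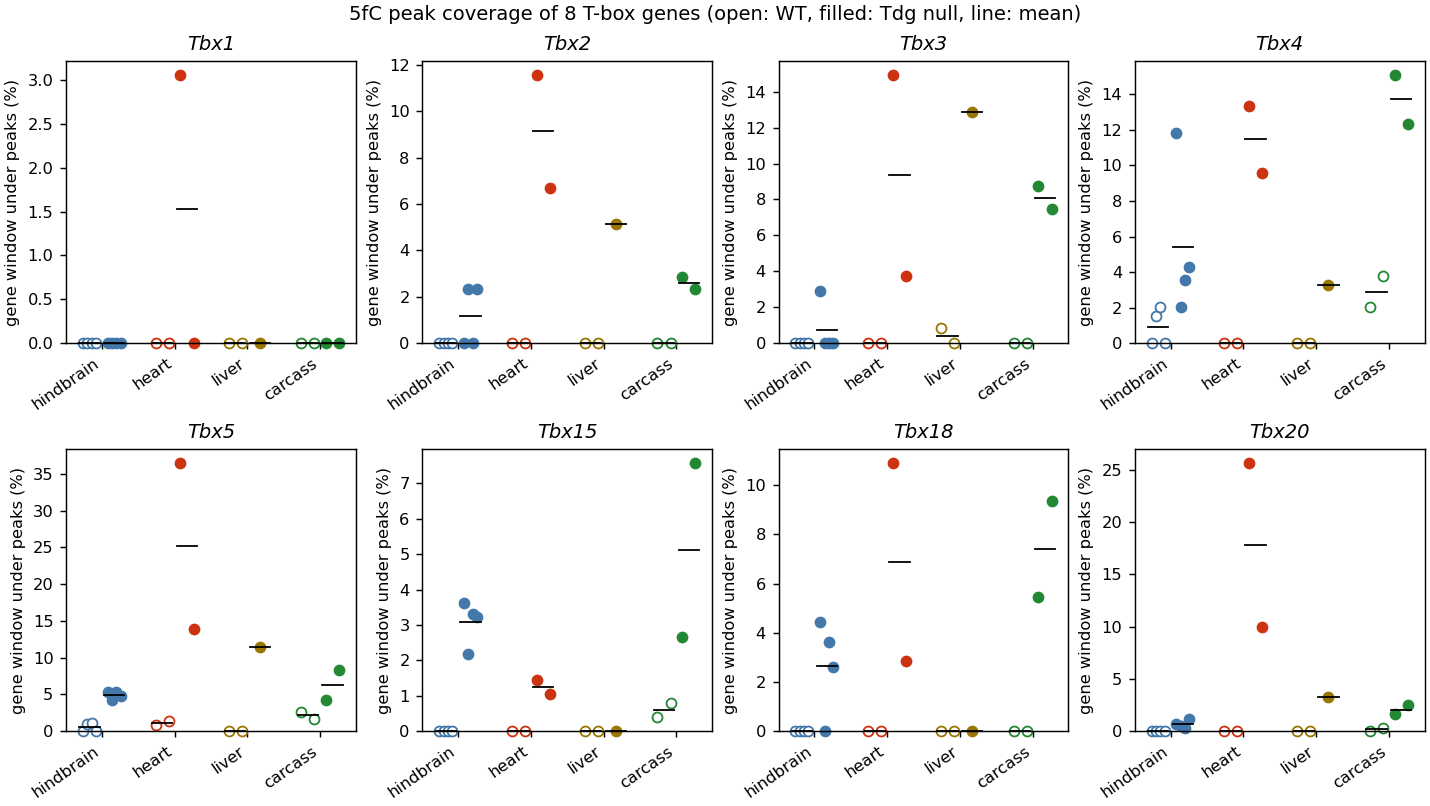
Percent of each gene window (gene body and 5 kb on either side) under 5fC peaks, by tissue, for each of 19 libraries; open points are WT, filled points *Tdg* null, and lines are group means. *Tbx5* and *Tbx20* reach 36.5% and 25.7% in 1 *Tdg* null heart, and the axes differ between panels.

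*Tbx5* (chr5:120284672-120335227) carried the most peaks, 73 in *Tdg* null and 9 in WT libraries. In *Tdg* null hindbrain its window was under peaks over 5.28% in litter A, 4.29% in O, 5.28% in Q and 4.79% in Z, with 5 peaks in each embryo. The *Tdg* null hearts had 36.5% (23 peaks, pair_a) and 13.9% (10 peaks, pair_b), the liver 11.4% (10 peaks), and the carcasses 4.29% (3 peaks) and 8.26% (7 peaks). Both hearts lay above every other *Tdg* null library, the liver came next, and hindbrain and carcass overlapped. In WT tissue, *Tbx5* was the gene most often under a peak, in 6 of 10 libraries: both carcasses, both hearts and 2 hindbrains, with coverage between 0% and 2.64%.

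*Tbx20* (chr9:24527648-24578746) had 47 *Tdg* null peaks, 32 of them in heart. Its window was under peaks over 25.7% and 9.98% in the hearts (21 and 11 peaks), 3.27% in the liver (5 peaks), 1.64% and 2.46% in the carcasses and 0.655%, 0.491%, 0.327% and 1.15% in hindbrains A, O, Q and Z. The tissues thus stood in the order heart, liver, carcass and hindbrain without overlap. In WT tissue it had 1 peak of 200 bp, in the carcass of pair_b, where 3 *Tdg* null libraries (both hearts and a hindbrain) also had a peak.

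*Tbx2* (chr11:85646053-85655450), a repressor of chamber genes, was under peaks in 7 of 9 *Tdg* null libraries and in 0 WT libraries. Its window was covered over 11.6% and 6.70% in the hearts, 5.16% in the liver, 2.84% and 2.32% in the carcasses, 2.32% in hindbrains O and Z and 0% in hindbrains A and Q. *Tbx3* (chr5:120120678-120134733), its close relative in sequence and role, had 14.96% and 3.74% in the hearts, 12.9% in the liver and 8.73% and 7.48% in the carcasses, but 2.91% in hindbrain A and 0% in hindbrains O, Q and Z. At this gene the liver lay between the 2 hearts, and hindbrain lay below every other tissue. The single WT peak at *Tbx3* was in the liver of pair_a, 200 bp long, and overlapped peaks of the *Tdg* null liver of the same litter and of a *Tdg* null heart.

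*Tbx18* (chr9:87597635-87626095) was covered over 10.9% and 2.86% in the *Tdg* null hearts, 5.46% and 9.36% in the carcasses, 4.42%, 0%, 3.64% and 2.60% in hindbrains A, O, Q and Z and 0% in the liver, with 0 WT peaks. Its deepest stretch, chr9:87598201-87598600, lay in the untranslated part of an exon and was under peaks in 7 *Tdg* null libraries. *Tbx1* (chr16:18581806-18588113) carried 1 peak in all 19 libraries, in the *Tdg* null heart of pair_a, over 3.07% of its window. That peak fell on chr16:18581801-18582300, at the 3′ end of the gene and within a CpG island, where 62 CpGs lie in 500 bp.

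*Tbx4* (chr11:85699924-85729599), the hindlimb gene, had a peak in every *Tdg* null library, as did *Tbx5* and *Tbx20*. Coverage was 15.1% and 12.4% in the carcasses, 13.4% and 9.58% in the hearts, 3.28% in the liver and 11.8%, 2.02%, 3.53% and 4.28% in hindbrains A, O, Q and Z. Hindbrain A stood with heart and carcass and apart from the other 3 hindbrains. Its WT peaks, 5 in number, were in both carcasses (2.02% and 3.78% of the window) and in hindbrains O and Q. *Tbx15* (chr3:99044304-99158182) was the one member with less coverage in heart than in every hindbrain. Its window was under peaks over 3.63%, 2.18%, 3.31% and 3.23% in hindbrains A, O, Q and Z, 2.66% and 7.59% in the carcasses, 1.45% and 1.05% in the hearts and 0% in the liver. In WT it had 3 peaks, all in carcass.

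Whether loss of TDG changed coverage was tested first in hindbrain, with 4 embryos of each genotype. The two-sided exact permutation test over the 70 assignments of the 8 libraries called 3 of 8 members higher in *Tdg* null, *Tbx5*, *Tbx15* and *Tbx20* (Benjamini-Hochberg adjusted p = 0.0408 over 17588 genes, n = 4 and 4). Among all genes tested, 70% were called higher, so that the members' count lies below the background. For *Tbx5* the mean rose from 0.537% ± 0.623 (SD) of the window in WT to 4.91% ± 0.474, and for *Tbx15* from 0% to 3.09% ± 0.630. *Tbx20* rose from 0% to 0.655%, a difference that 89.2% of genes matched or passed. The remaining values were 5.42% against 0.882% for *Tbx4*, 2.67% against 0% for *Tbx18*, 1.16% against 0% for *Tbx2* and 0.727% against 0% for *Tbx3*. With a library left out, the *Tbx4* difference lay between 2.39 and 5.67 percentage points. *Tbx1* had no peak in either group and was not tested. The median difference was 1.91 percentage points over the 8 members, *Tbx1* at 0 included, and 3.67 over all genes tested. With the litters as 4 pairs, the exact sign-flip test called 0 members and could not go below p = 0.125. Leaving out any 1 WT hindbrain also left 0 calls, and leaving out *Tdg* null hindbrain O gave 5.

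Over all tissues, the exact sign-flip test took each of the 6 litters as 1 value, the average over its tissues, and had 64 sign patterns. This exact test called 4 of 8 members higher in *Tdg* null, *Tbx4*, *Tbx5*, *Tbx15* and *Tbx20* (adjusted p = 0.0494, two-sided), each of them higher in 6 of 6 litters. Among all genes tested, 63.3% were called higher. The mean differences were 6.19 percentage points of the window for *Tbx4*, 7.23 for *Tbx5*, 2.92 for *Tbx15* and 3.15 for *Tbx20*. With a litter left out, they ranged in the same order from 5.06 to 7.33, 5.42 to 8.01, 2.72 to 3.25 and 1.74 to 3.71. The adjusted p was 0.0853 for *Tbx18*, 0.156 for *Tbx2*, 0.290 for *Tbx3* and 1 for *Tbx1* by the same exact test. The 4 calls also became 0 over the gene body only, with peaks of at least 600 bp, with all annotated genes tested or with peak numbers in place of coverage. Leaving out any litter ended every call, since 5 litters cannot reach the threshold. The same limit would hold if pair_a and pair_b were pairs from 1 litter, since their embryos' names share a letter as those within each hindbrain litter do.

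*Tdg* null libraries had more peaks everywhere, so relative coverage was compared in hindbrain as well. The exact permutation test called 0 of 8 members higher or lower, as it did 0% of all genes higher and 0% lower. At an unadjusted p of 0.0286, the smallest that 4 against 4 allows in this exact test, *Tbx15* and *Tbx20* were higher in *Tdg* null, and 8286 genes in all lay under an unadjusted 0.05. *Tbx15* had a relative coverage of 0.911 ± 0.0836 (SD) in *Tdg* null and 0 in WT. Between 3.10% and 23.3% of all genes had a peak in a WT hindbrain, so 0 was the usual WT value. Scaling does not remove this limit. *Tbx4* and *Tbx5* had higher means in WT, 3.22 against 1.55 and 2.02 against 1.47, from 2 of the 4 WT hindbrains, with adjusted p = 0.720 and 1 in the exact test. Both of these differences turned to higher in *Tdg* null without WT hindbrain O, at 0.12 for *Tbx4* and 0.65 for *Tbx5*. That of *Tbx20* turned to lower in *Tdg* null, at -0.080, with 10 kb on each side.

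WT peaks in the 8 windows met *Tdg* null peaks about as often as WT peaks in all gene windows did. Of the 19 WT peaks in the windows, 12 (63.2%) coincided at least in part with a peak in the same tissue of the *Tdg* null littermate, and 18 (94.7%) with a peak in some *Tdg* null library. Over all protein-coding gene windows these shares were 64.4% and 89.8%. On the deepest stretches of *Tbx4* and *Tbx5* printed above lay 9 of them, 4 and 5 in number. The exception was a 500 bp peak in *Tbx5* of the WT heart of pair_a, chr5:120328901-120329400. No WT peak was found at *Tbx1*, *Tbx2* or *Tbx18*, and 3 of 10 WT libraries had no peak in any of the windows.

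Tissue patterns were compared among the 9 *Tdg* null libraries on relative coverage. A gene was called where all libraries of one tissue lay beyond all others. Heart stood apart and higher at 2 of 8 members, *Tbx5* and *Tbx20*, while 19.5% of all 19058 genes tested did so, a share close to that of the members. *Tbx5* had relative coverages of 4.52 and 3.81 in the hearts, 3.77 in the liver, 1.30 to 1.60 in hindbrain and 0.797 and 1.09 in carcass. Heart and liver were nearly level at this gene. *Tbx20* had 3.18 and 2.74 in the hearts, 1.08 in the liver, 0.304 and 0.325 in carcass and 0.0930 to 0.312 in hindbrain, so that its hearts lay well clear of all others. The heart mean exceeded the mean of the other 7 libraries by 2.51 for *Tbx5* and 2.61 for *Tbx20* (unadjusted p = 0.0278 for each, exact permutation test, the smallest that 2 against 7 allows, adjusted p = 0.134). A difference at least as large was seen at 4.8% and 4.4% of genes. With 10 kb on each side, or with percentile ranks in place of relative coverage, *Tbx20* alone stood apart. With the heart of pair_a as the single heart, *Tbx1* and *Tbx18* did so as well. *Tbx2*, at 1.43 and 1.84 in the hearts, 1.70 in the liver and at most 0.867 elsewhere, joined *Tbx5* and *Tbx20* without the liver, with the heart of pair_b as the single heart or without scaling. No member stood apart and lower in heart, against 4.89% of genes. *Tbx15* came nearest, at a mean of 0.234 in heart and 0.735 elsewhere (unadjusted p = 0.0833, exact test).

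**Figure D2:**
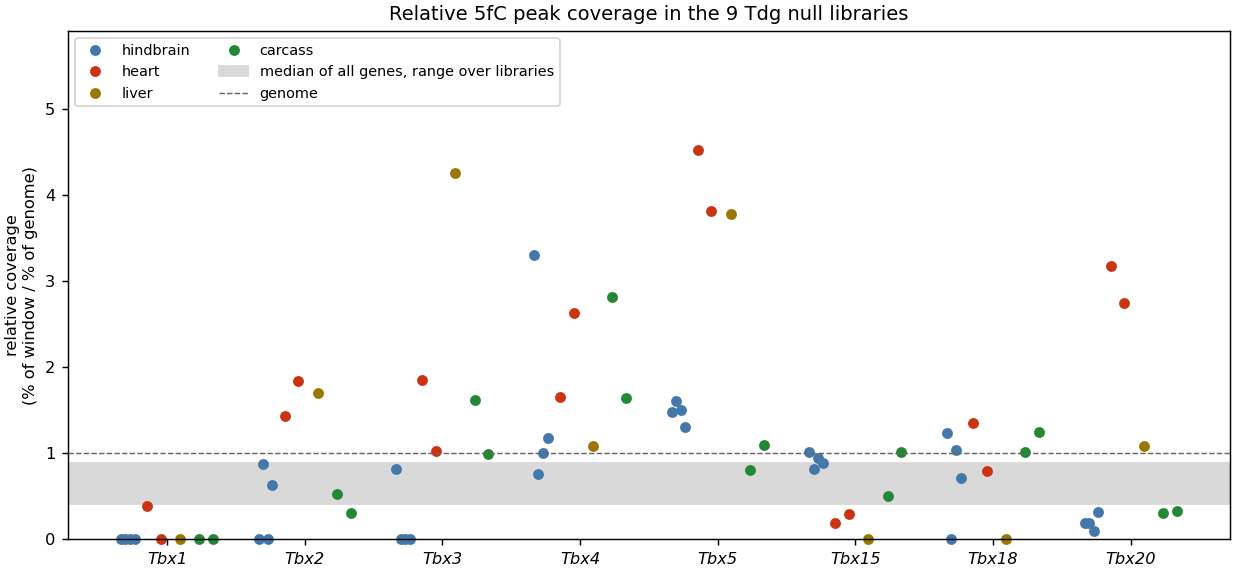
Relative coverage (percent of the gene window under peaks divided by the percent of the ungapped genome under peaks) of the 8 genes in each of the 9 *Tdg* null libraries, coloured by tissue. The grey band spans the medians of all protein-coding genes in these libraries and the dashed line marks the genome level of 1; the hearts of *Tbx5* and *Tbx20* lie at 2.74 to 4.52.

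Carcass, which holds the limbs, stood apart and higher at 0 of 8 members (3.6% of genes) and apart and lower at 1, *Tbx5* (8.19% of genes), which lost this call with the gene body only, with 10 kb on each side, with the *Tdg* null liver of pair_b included, without scaling or with percentile ranks. The limb gene *Tbx4* had relative coverages of 2.81 and 1.64 in carcass, within the 0.754 to 3.29 of the other tissues, and *Tbx15* had 0.494 and 1.0. Hindbrain stood apart and higher at 0 of 8 members (7.27% of genes) and apart and lower at 1, *Tbx3* (3.77% of genes), whose hindbrain values of 0.809, 0, 0 and 0 lay below the 0.991 to 4.25 elsewhere. This call was lost over the gene body only and with the *Tdg* null liver of pair_b included. *Tbx15* in hindbrain, at 0.815 to 1.01, lay above liver, both hearts and the carcass of pair_a, and overlapped the carcass of pair_b. The median of the 8 members was 1.54 and 1.43 in the hearts, against 0.879 and 0.740 for all genes. It was also above that of all genes in the liver, at 1.08 against 0.405, and in the carcasses, at 0.661 and 0.998 against 0.521 and 0.570. In hindbrain it was 0.910, 0.469, 0.516 and 0.670, against 0.777, 0.694, 0.788 and 0.727.

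The same comparisons were read for lists of related genes. Of 14 genes known as targets of T-box factors, 8 stood apart and higher in heart and 0 lower, where 19.5% of all genes tested were higher and 4.89% lower, with a median difference of 1.56 against 0.159 over all genes tested. Among them were *Myh6* and *Tnni3*, sarcomere genes of heart muscle (differences of 8.67 and 5.82), *Bmp10* (7.63) and *Nppa* (4.59), which encode a growth factor and a hormone of the chamber wall, *Hcn4* and *Ryr2*, ion channels of the heartbeat (1.78 and 1.61), and *Vcan*, a matrix proteoglycan (0.69). *Tbx5* and *Tbx20* thus lay below the largest of these differences. Of 12 cardiac partner factors, 11 of them tested, 5 were apart and higher in heart, *Gata5* (4.68), *Myocd* (3.48), *Hand2* (1.10), *Mef2c* (1.10) and *Isl1* (0.75). Of 14 limb factors, 12 of them tested, *Hand2* was higher and *Gli3* and *Grem1* were lower, by -1.0 and -0.66. In carcass, *Gli3*, a mediator of hedgehog signals in the limb bud, was the limb factor that stood apart and higher (0.93). Of the 9 other T-box genes, 7 of them tested, *Tbx10* was apart and higher in heart (2.96), and *Tbx6*, a gene of the early paraxial mesoderm, was apart and higher in hindbrain (4.03). The median heart difference was 0.98 for the cardiac partners, -0.09 for the limb factors and 0 for the other T-box genes. Apart and lower were *Gata4* (-3.35), *Myocd* (-2.0) and *Gja5* (-0.97) in carcass, and *Tbx10* (-2.29), *Mef2c* (-0.87), *Meis1* (-1.41) and *Meis2* (-0.95) in hindbrain. In the hindbrain genotype test, which called 70% of all genes tested higher in *Tdg* null, 11 of 14 targets tested, 8 of 8 partners, 7 of 11 limb factors and 5 of 7 other T-box genes were called higher. These lists were described by their counts alone, and some genes belong to more than 1 of them.

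Within the windows, the peaks of heart were spread along *Tbx5* and *Tbx20*, as the plot of peaks along the genes shows. In *Tbx5*, 4200 bp in 8 stretches were under peaks in both hearts and in no other *Tdg* null library, and a further 3700 bp were shared by both hearts and the liver. In *Tbx20*, 4000 bp in 10 stretches belonged to both hearts alone, and 700 bp were shared with the liver. The other members had between 0 and 700 bp under both hearts alone, and between 0 and 1300 bp shared by both hearts and the liver. As a share of the window, the bases of both hearts alone came to 6.94% in *Tbx5* and 6.55% in *Tbx20*. In the other members they came to at most 2.06%, in *Tbx2*. Such bases were not counted for all genes. *Tbx15* showed another arrangement, with 1400 bp in 2 stretches under peaks in all 4 hindbrains and both carcasses and in no heart. Bases under peaks in all 9 *Tdg* null libraries were found in *Tbx5* alone, over 100 bp.

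**Figure D3:**
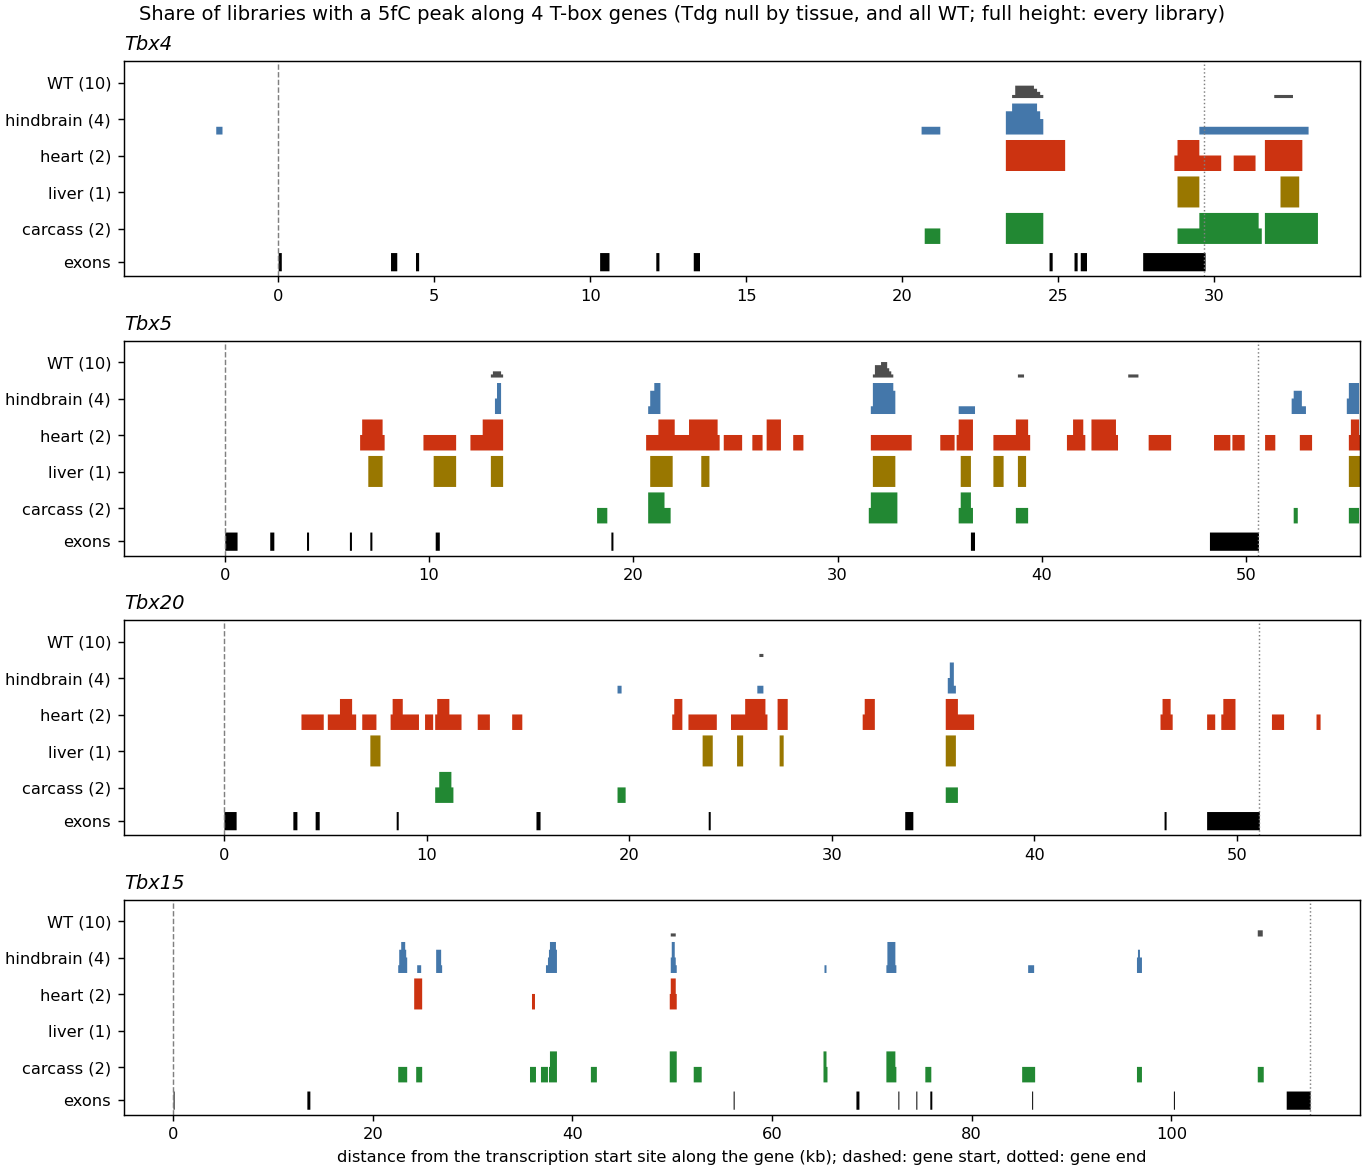
Peaks along *Tbx4*, *Tbx5*, *Tbx20* and *Tbx15*, by distance from the start site in the direction of transcription (kb). Each row's height is the share of libraries of that kind with a peak (number of libraries in brackets; tissues are *Tdg* null), and the lowest row marks exons; the largest common block is at 32 kb in *Tbx5* and 24 kb in *Tbx4*.

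The start sites of all 8 genes were free of peaks. The nearest *Tdg* null peak, on either side of the start and in any of the 9 libraries, lay 5.57 kb away for *Tbx5*, 3.85 kb for *Tbx20*, 4.85 kb for *Tbx2*, 4.62 kb for *Tbx3*, 6.60 kb for *Tbx18*, 5.81 kb for *Tbx1*, 1.82 kb for *Tbx4* and 6.50 kb for *Tbx15*. The median was 5.21 kb for the members and 1.03 kb for all 22367 protein-coding genes. Of all genes, 50.6% had no peak within 1 kb of the start, as did 8 of 8 members, and the members' distances were matched or passed by 19.1% to 37.4% of genes. In the 5 kb upstream of the genes, 7 of 9 *Tdg* null libraries had no peak base at any member, and the other 2, a hindbrain and a heart, had 0.5% and 0.37%. Over all protein-coding genes this flank was under peaks over 2.84% to 9.05%. In the 5 kb downstream, the members had 2.82% to 15.4% and all genes 2.84% to 10.3%. Summed over the *Tdg* null libraries, the downstream flank was covered more than the upstream flank at 7 of 8 members, against 39.1% of genes, and *Tbx15* had no peak in either. *Tbx1* counts among the 7 through the edge of its single peak, which reached 0.1% of that flank in 1 library.

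**Figure D4:**
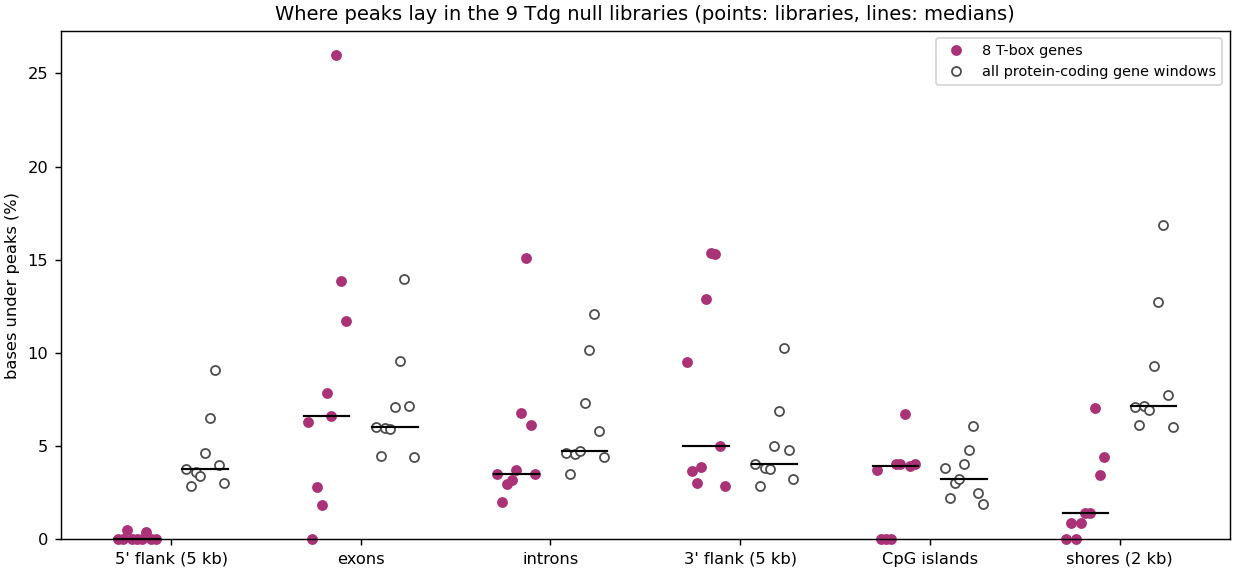
Percent of bases under peaks by feature in the 9 *Tdg* null libraries, for the 8 T-box genes (filled) and all protein-coding gene windows (open); points are libraries and lines are medians. The upstream flank of the members lies between 0% and 0.5%, below every value for all genes.

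Exons of the members were under peaks over a median of 6.60% of bases across the 9 *Tdg* null libraries (range 0% to 26.0%) and introns over 3.51% (1.98% to 15.1%), against medians of 6.02% and 4.72% for all genes. CpG islands were defined here by a length from 500 bp, a GC content from 55% and an observed over expected CpG ratio from 0.65. These limits were applied to whole stretches of joined short windows that had passed looser limits. A qualifying part of a weaker stretch would thus be missed. Islands so defined numbered 6 at *Tbx1*, 5 at *Tbx2*, 2 at *Tbx3*, 3 at *Tbx15* and 1 at *Tbx18*, and none were found at *Tbx4*, *Tbx5* or *Tbx20*. Islands were under peaks over a median of 3.94% of bases at the members and 3.19% in all gene windows. They made up 32.5% of the *Tbx1* window and 27.8% of the *Tbx2* window. At *Tbx2*, *Tbx15* and *Tbx18* no island base was under a peak in any *Tdg* null library, while at *Tbx3* the median was 21.0%, from an island that covers coding sequence about 10 kb into the gene. Island shores, the 2 kb on either side, were under peaks over a median of 1.39% at the members and 7.15% in all gene windows, and the member value was 0% in 2 of 9 libraries. Outside islands, CpGs were denser under *Tdg* null peaks than elsewhere in all 7 windows with such bases. How often this held over all gene windows was not computed. The contrast was 3.31 against 1.86 CpGs per 100 bases at *Tbx3*, 1.37 against 0.80 at *Tbx15* and 1.76 against 1.4 at *Tbx5*, and small at *Tbx4* (1.70 against 1.67) and *Tbx2* (2.64 against 2.60).

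The gene whose relative coverage over the 9 *Tdg* null libraries was most like that of *Tbx20* was *Phf8* (Pearson r = 0.997), and for *Tbx5* it was *1110018G07Rik* (r = 0.994). For *Tbx15* it was *Nmu* (r = 0.978), for *Tbx3* *Serpina11* (r = 0.989), for *Tbx2* *Rai1* (r = 0.973) and for *Tbx18* *Gpr112* (r = 0.952). *Tbx1* has a peak in 1 library and matches any gene with a peak in that library alone. These values describe 9 libraries from 4 tissues, of which heart, liver and carcass share embryos, and they are the highest of many genes compared.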

How the data were processed

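5fC pull-down libraries from 12 E11.5 embryos of 6 litters were studied. Per the methods and the submitters' processing notes, the authors trimmed reads with Trim Galore, aligned them to NCBIM37 with Bowtie2 and called peaks in each library with the MACS caller of SeqMonk. The deposited values are positions, peak starts and ends in bases on a grid of 100 bp. Duplicate handling and depth are not given in the sources used here. The authors' cutoff fixes which regions are listed, so a gene without a peak may still hold 5fC.

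Peaks on 21 chromosomes were set against GENCODE genes of NCBIM37 in Python 3.11.15 (numpy 2.4.6, pandas 2.3.3, scipy 1.17.1, matplotlib 3.10.9). Windows are gene bodies with 5 kb on either side, and genes with no peak in the libraries compared were not tested. Tests were two-sided exact permutation or sign-flip tests, adjusted over all genes by Benjamini and Hochberg at 0.05, and were tested on simulated data. *Tdg* null and WT embryos were littermates, but deviations of hindbrains from the same litter correlated between -0.0511 and 0.0702. Windows can hold other genes: *Tbx1* 4930588K23Rik, *Tbx2* 2610027K06Rik and Gm11444, *Tbx3* Gm2301 and Gm16065, *Tbx4* AL592465.1, *Tbx15* Wars2. Peaks carry no strand. The members and lists were chosen with earlier results of these data known. All 8 members are named, and listed genes where a tissue's libraries stood apart. Some items are not reported here. Alternatives were window size, long or merged peaks, all annotated genes, peak numbers, other scales, each replicate left out, litter as a block and inclusion of the second *Tdg* null liver.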

Additional observations from a re-analysis of the deposited data

Results flagged for a closer look

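At *Tbx3*, the *Tdg* null hindbrain of litter A had 2.91% of the window under peaks, while the *Tdg* null hindbrains of litters O, Q and Z had 0%, so that this embryo lies far from the others of its group. It was the one such case among 11 groups of 4 with any spread, and with 3 embryos at 0% any peak in the remaining one stands out in this way. The peak falls on the stretch at chr5:120130301-120131000 that was under peaks in both hearts, both carcasses and the liver as well.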

How the results depend on the processing

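The counts of members called changed under several alternatives. In hindbrain, 3 members were called higher in *Tdg* null, 0 with litter as replicate block, and 0 to 5 with a replicate left out (0 without any one WT embryo, 5 without *Tdg* null O). Over litters, the 4 calls became 0 with the gene body only, peaks of at least 600 bp, all annotated genes or peak numbers, and 0 without any litter. Deviations of same-litter hindbrains showed no shared direction (r from -0.0511 to 0.0702).

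Heart stood apart and higher at 2 members, at 1 with 10 kb on each side or with percentile ranks, and at 2 to 4 with a replicate left out (4 without heart pair_b); it stood lower at 0 to 1 (1 without the liver). Carcass stood lower at 1 member, and at 0 with the gene body only, 10 kb, the second liver included, unscaled percent or percentile ranks, where 1 stood higher. Hindbrain stood lower at 1 member, at 0 with the gene body only or the second liver, at 2 with peaks of at least 600 bp, unscaled percent or percentile ranks, and at 1 to 2 with a replicate left out (2 without hindbrain Z or carcass pair_a); it stood higher at 0 to 1 (1 without carcass pair_b).

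Signs turned for differences that were not called. In hindbrain relative coverage, *Tbx20* became -0.080 with 10 kb, *Tbx4* 0.85 and *Tbx5* 1.34 on the log2 scale, with ranges of -2.73 to 0.12 for *Tbx4* and -1.22 to 0.65 for *Tbx5* with a replicate left out. For heart, *Tbx4* became -0.46 with 10 kb and ranged from -0.026 to 0.95, and *Tbx3* from -0.068 to 0.87. For carcass, *Tbx3* and *Tbx4* became -0.56 and -0.22 with the gene body only, and *Tbx3* ranged from -0.14 to 0.69, *Tbx4* from -0.019 to 1.15 and *Tbx15* from -0.093 to 0.42. For hindbrain, *Tbx18* became 0.091 with the gene body only and 0.012 with the second liver and ranged from -0.35 to 0.11, and *Tbx1* became 0.33 with 10 kb. The heart differences of *Tbx5* and *Tbx20* stayed between 2.16 and 2.87 with a replicate left out. The cause was not tested. With 2 hearts and 1 liver, a single library decides much, and unknown depth limits every absence of a peak.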
